A study of Homo sapiens with 8 samples.

Results

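In the gene count table, 8 of 19447 gene symbols are described here: SREBF2 and SREBF1, which encode the sterol regulatory element-binding proteins SREBP-2 and SREBP-1, SCAP, INSIG1 and INSIG2, which encode the proteins that escort or retain them, STARD4, a soluble carrier of sterol, MYLIP, a ubiquitin ligase for lipoprotein receptors, and ABCA1, an exporter of cholesterol. They were taken by gene symbol as genes of SREBP control, lipoprotein uptake and sterol efflux, and all 8 were in the table. The 8 libraries are RNA of K562 cells, an erythroleukaemia line established from a human and carrying BCR-ABL1, with the genotype labelled WT. Of these, 3 came from cells given 10 µM Lip-1 for 24 h (replicates 2 to 4, Day 1), 1 from cells given 20 µM Lip-1 for 24 h (replicate 1, Day 1) and 4 were controls without Lip-1 (replicates 1 to 4, Day 0). The labels do not expand Lip-1, a short form often written for liproxstatin-1, which blocks lipid peroxidation. Treatment and day coincide, so Lip-1 and the day of harvest cannot be told apart, and the labels do not say whether controls received a vehicle. They do not say either that replicates were separate cultures, so p-values measure the spread between these libraries, which may be technical.

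SREBPs are made as membrane proteins of the endoplasmic reticulum, where SCAP binds them. When sterol is low, SCAP carries them in transport vesicles to the Golgi, where proteases release the part that enters the nucleus and switches on genes. When sterol is high, INSIG proteins hold SCAP back. SREBP-2 acts mainly on genes of sterol synthesis and lipoprotein uptake, and SREBP-1 mainly on genes of fatty acid synthesis. INSIG1 and STARD4 are themselves known SREBP targets. The liver X receptors (LXR) sense oxidised sterols and drive ABCA1, MYLIP and SREBF1.

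The promoters of 4 of these genes are shown because INSIG1, STARD4, SREBF2 and SREBF1 carry the main differences below. Each is the 250 bases before the gene start given by RefSeq on GRCh38.p14, read 5′ to 3′ on the gene's own strand. They are INSIG1 (chr7:155297628-155297877, plus strand), STARD4 (chr5:111512536-111512785, minus strand), SREBF2 (chr22:41832855-41833104, plus strand) and SREBF1 (chr17:17836987-17837236, minus strand). Capitals mark matches to TCACNCCAC or TCACCCCA, which are forms of the sterol regulatory element, to the E-box CACGTG, and to CCAAT, which reads ATTGG on the other strand.
INSIG1: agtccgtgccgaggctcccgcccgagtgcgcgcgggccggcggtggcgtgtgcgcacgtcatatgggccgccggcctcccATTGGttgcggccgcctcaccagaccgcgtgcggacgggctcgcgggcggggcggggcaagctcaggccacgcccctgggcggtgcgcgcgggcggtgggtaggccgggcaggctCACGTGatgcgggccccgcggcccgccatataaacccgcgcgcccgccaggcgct
STARD4: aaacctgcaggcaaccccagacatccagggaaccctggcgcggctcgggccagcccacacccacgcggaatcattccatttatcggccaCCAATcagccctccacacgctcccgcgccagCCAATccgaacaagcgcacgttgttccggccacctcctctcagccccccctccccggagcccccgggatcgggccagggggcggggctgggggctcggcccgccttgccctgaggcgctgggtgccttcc
SREBF2: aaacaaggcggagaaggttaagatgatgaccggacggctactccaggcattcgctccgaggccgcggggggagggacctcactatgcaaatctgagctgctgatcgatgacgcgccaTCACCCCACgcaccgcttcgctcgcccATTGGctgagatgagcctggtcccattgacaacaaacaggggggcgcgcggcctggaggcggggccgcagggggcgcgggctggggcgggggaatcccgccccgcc
SREBF1: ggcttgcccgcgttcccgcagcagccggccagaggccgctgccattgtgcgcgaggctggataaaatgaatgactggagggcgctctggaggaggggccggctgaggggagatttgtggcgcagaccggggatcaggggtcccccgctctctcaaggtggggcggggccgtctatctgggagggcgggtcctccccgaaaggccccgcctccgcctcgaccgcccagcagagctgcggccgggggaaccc
In the SREBF2 promoter a single stretch matched both sterol elements, which overlap there, 133 to 125 bases before the start. TCACNCCAC was found on either strand in 0.883% of 35116 promoter windows of this length, and TCACCCCA in 1.29%. INSIG1 held CACGTG at 55 to 50 bases before the start, a motif in 6.34% of windows and also in those of SCAP and ABCA1. CCAAT stood once in the INSIG1 and SREBF2 windows and in 2 places in the STARD4 window, was also in that of MYLIP, and was in 32% of all windows. The SREBF1 window had no match to these 4 motifs. GGGCGG, the Sp1 box, was searched as well and is not in capitals: it was in the windows of all 8 genes and in 42.6% of all windows. All 8 genes matched the RefSeq table, with 9 windows, since INSIG2 has 2 starts there. These matches are descriptions of sequence and were not tested as binding sites.

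Total counts were between 71151415 and 141307169 per library. All 10 markers of K562 and erythroid cells were above 1 CPM (each count over its library's total, times 1000000) in every library. By rising dose, their summed level was between 4220 and 7473 CPM in the controls, between 3427 and 4472 CPM at 10 µM and 2757 CPM in the 20 µM library. GATA1, the erythroid transcription factor, had 63.6 CPM in the 20 µM library and between 184 and 254 CPM in the others. Lymphocyte markers summed to 12.9 to 17.0 CPM in controls, 13.6 to 22.8 CPM at 10 µM and 6.11 CPM at 20 µM. Markers of epithelium and fibroblasts summed to 30.5 to 54.2 CPM in controls, 32.0 to 42.4 CPM at 10 µM and 26.9 CPM at 20 µM, and monocyte markers to 17.7 to 124 CPM, 19.4 to 107 CPM and 20.3 CPM at the same doses. Over 1 CPM in every library were 1 of 4 lymphocyte markers, 1 of 3 monocyte markers and 1 of 4 markers of epithelium and fibroblasts. Of the defining markers, CD3E, MS4A1, CSF1R, CDH1 and COL3A1 stayed under 1 CPM in every library. The part of these marker differences in the results was not tested. In RNA from bulk cells, fewer cells of a type and less RNA per cell cannot be told apart.

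At 10 µM, SREBF2, INSIG1, STARD4 and INSIG2 rose against controls, and no gene of the 8 fell. The 20 µM library did not continue that change for all of them: INSIG1, STARD4, SREBF1 and MYLIP fell in it against the 10 µM libraries, while SREBF2 and INSIG2 stayed near their 10 µM level. By edgeR's quasi-likelihood test with Benjamini-Hochberg adjustment over 14857 genes, 4 of 8 passed as higher at 10 µM, where 9.34% of all genes tested were called higher, and 0 of 8 as lower, where 9.79% were; 19.1% of genes were called in either direction. At an unadjusted edgeR p under 0.05 there were 6 higher and 0 lower, beside 4901 of the 14857 genes in either direction. DESeq2 called 4 of the 8 too, beside 3798 of all genes, and limma-voom 4, beside 2958. In CPM, which leaves out the scaling factors used in the test, the groups did not overlap for 6 of the 8, against 32.6% of all genes. For SREBF1 the margin was narrow, with 233.9 CPM in the lowest 10 µM library and 233.5 CPM in the highest control. The scaling factors of these libraries, 1.018 and 1, reverse that order. For the 20 µM library against 10 µM, 0 passed as higher and 4 as lower, against 26.3% of genes called in either direction. That library is 1 sample, assumed in the fit to vary like the others, so its differences have no replicate check, and both contrasts share the 10 µM libraries. The median log2 fold change of the 8 was 0.71 at 10 µM against control, beside 0.05 over all genes tested, and -0.44 for 20 µM against 10 µM, beside 0.01.

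**Figure D1:**
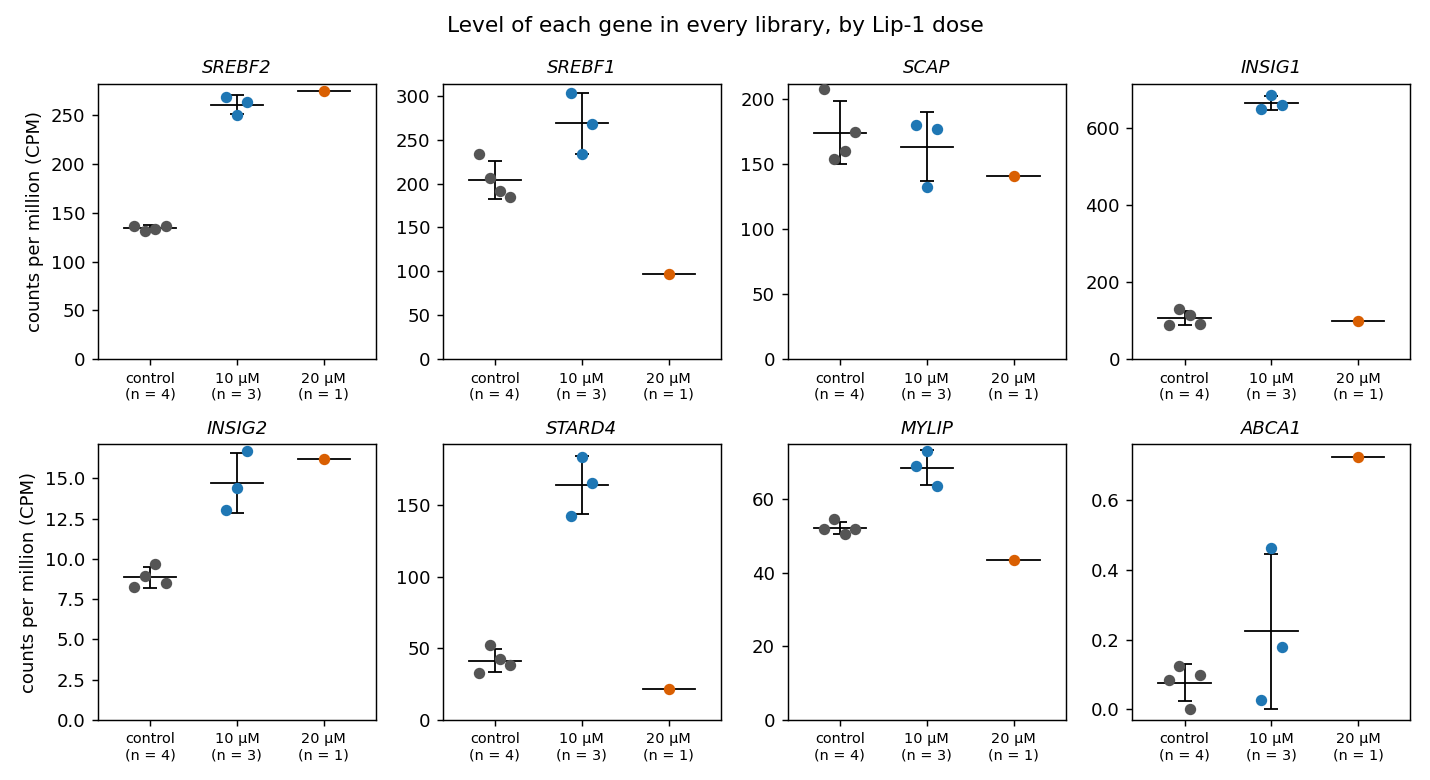
Level of each gene in CPM (vertical axis, from 0 in each panel, except for ABCA1 where it starts just under 0) in every library, by Lip-1 dose (horizontal axis). Points are libraries, horizontal lines are means and error bars are SDs (n = 4 controls, n = 3 at 10 µM, no error bar for the single 20 µM library); INSIG1 and STARD4 are high at 10 µM alone, while SREBF2 and INSIG2 are high at both doses.

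SREBF2 encodes SREBP-2, the factor of sterol synthesis, on chromosome 22 (hg38, 41833079 to 41907308, plus strand). It had 269, 250 and 264 CPM in the 10 µM libraries, against 137, 131, 133 and 137 CPM in the controls. The 20 µM library had 275 CPM. Every treated library lay above every control, and the 4 treated libraries lay close to each other. SREBF2 averaged 261 ± 9.75 CPM at 10 µM and 134 ± 2.83 CPM in controls (SD, n = 3 and n = 4), a log2 fold change of 0.83 (SE 0.0849), or 1.78-fold, with an edgeR adjusted p of 0.000863. Between 20 µM and 10 µM the log2 difference was 0.08 (SE 0.129, edgeR adjusted p = 0.706). Of the 8 genes it alone kept its call in the contrast of all 4 treated libraries with the 4 controls when any single library was left out, with log2 fold changes between 0.82 and 0.88. Its exons share 280 bases with SREBF2-AS1 on the opposite strand, and no strand setting is given in the sources used here, so its count may hold reads of that gene.

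SREBF1 encodes SREBP-1, the factor of fatty acid synthesis, on chromosome 17 (hg38, 17810399 to 17837002, minus strand). It had 304, 233.9 and 268 CPM in the 10 µM libraries, against 233.5, 207, 191 and 184 CPM in the controls. The level at 20 µM was 97.1 CPM, below every other library. The lowest 10 µM library lay just above the highest control in CPM, but not with the scaling factors applied. The averages were 268 ± 34.9 CPM at 10 µM and 204 ± 21.8 CPM in controls. Without a block, SREBF1 did not pass at 10 µM (log2 fold change 0.27, SE 0.119, edgeR adjusted p = 0.148). With the replicate number as a block, it did (0.31, edgeR adjusted p = 0.0426). In the 20 µM library SREBF1 fell by 1.47 on the log2 scale (SE 0.198) against 10 µM, with an edgeR adjusted p of 0.00135. Exons of SREBF1 share 556 bases with RAI1 on the opposite strand, so with no strand setting given its count may hold reads of RAI1.

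The ratio of SREBF2 to SREBF1 was higher in each treated library than in any control. The linear ratio of SREBF2 to SREBF1 CPM was 2.84 in the 20 µM library and 0.887, 1.07 and 0.983 in the 10 µM libraries, against 0.586, 0.634, 0.698 and 0.741 in the controls. The mean log2 ratio was 0.35 ± 0.776 in the 4 treated libraries and -0.59 ± 0.15 in the 4 controls, a difference of 0.94 (exact permutation test, two-sided, p = 0.0286, the smallest p this design allows; 0.0858 adjusted over the 3 ratios tested). Paired by replicate number, the exact p was 0.125, the smallest that 4 pairs allow. At 10 µM alone the mean was -0.03 ± 0.136, a difference of 0.56 to the controls (exact permutation p = 0.0286, again the smallest possible). Without the 20 µM library the difference was more than 1.5 times smaller.

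SCAP, which escorts SREBPs to the Golgi, showed no difference that passed the test at either dose. On chromosome 3 (hg38, 47413694 to 47477126, minus strand), it had 180, 132 and 177 CPM in the 10 µM libraries, against 208, 154, 160 and 174 CPM in the controls, and 141 CPM stood in the 20 µM library. The 10 µM libraries and controls overlapped, and 20 µM lay below every control but above the lowest 10 µM library. The log2 difference was -0.22 for 10 µM against control (SE 0.13, edgeR adjusted p = 0.285) and -0.21 (SE 0.199, edgeR adjusted p = 0.473) for 20 µM against 10 µM.

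INSIG1 encodes the retention protein that is itself a known SREBP target, on chromosome 7 (hg38, 155297776 to 155310235, plus strand), and its promoter is the first one printed above. It had 651, 687 and 661 CPM in the 10 µM libraries, against 89.8, 129, 115 and 91.3 CPM in the controls. At 20 µM it had 98.6 CPM. The 10 µM libraries stood far above the controls and close together, and the 20 µM library lay inside the range of the controls. INSIG1 averaged 666 ± 18.3 CPM at 10 µM and 106 ± 19.1 CPM in controls, 5.71-fold or 2.51 on the log2 scale (SE 0.163), with an edgeR adjusted p of 0.000171. It fell by 2.76 on the log2 scale (SE 0.29) in the 20 µM library against 10 µM, with an edgeR adjusted p of 0.000519.

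INSIG2, its paralogue, which is not known as an SREBP target in the same way, sits on chromosome 2 (hg38, 118088452 to 118110997, plus strand). It had 13.0, 14.4 and 16.7 CPM in the 10 µM libraries, against 8.22, 8.95, 9.70 and 8.51 CPM in the controls. At 20 µM there were 16.2 CPM. All treated libraries lay above all controls, and the 20 µM library lay inside the 10 µM range. INSIG2 averaged 14.7 ± 1.86 CPM at 10 µM and 8.85 ± 0.644 CPM in controls, a log2 fold change of 0.60 (SE 0.161), or 1.51-fold, with an edgeR adjusted p of 0.0322. This call was lost without control 1, 2 or 4 (edgeR adjusted p = 0.0579, 0.0644 and 0.0766) and without 10 µM replicate 3 or 4 (0.0909 and 0.101). Between 20 µM and 10 µM the log2 difference was 0.14 (SE 0.242, edgeR adjusted p = 0.711).

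The ratio of INSIG1 to INSIG2 was high at 10 µM alone. INSIG1 CPM was 6.09 times INSIG2 CPM in the 20 µM library and 50, 47.7 and 39.6 times in the 10 µM libraries, against 10.9, 14.4, 11.9 and 10.7 times in the controls. The ratio at 20 µM was below every control, and the 10 µM libraries were above them all. Over the 4 treated libraries the mean log2 ratio was 4.78 ± 1.46, against 3.57 ± 0.195 in the controls, and the difference of 1.21 did not pass (exact permutation test, two-sided, p = 0.143, adjusted 0.214). At 10 µM alone it was 5.51 ± 0.178, a difference of 1.94 to the controls (exact permutation p = 0.0286, the smallest possible).

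**Figure D2:**
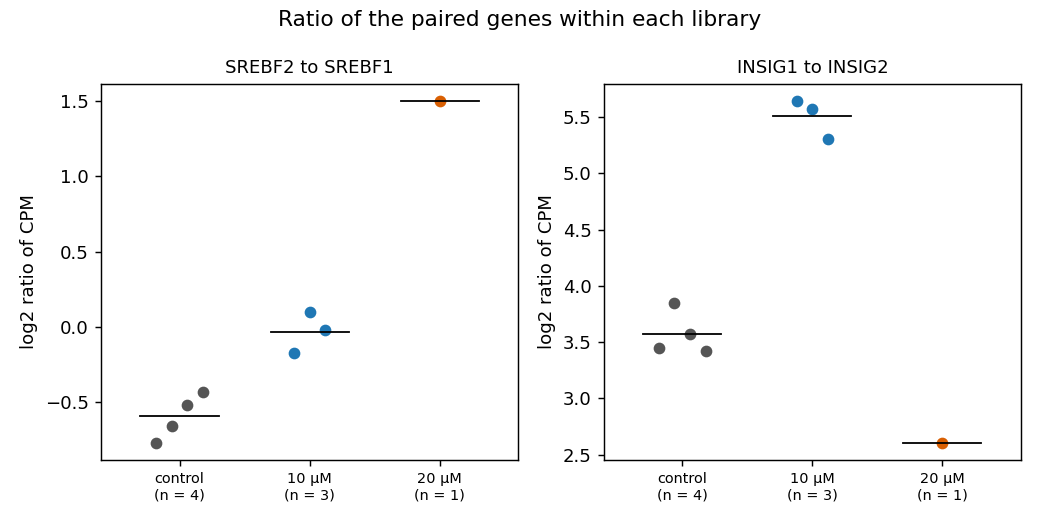
Log2 ratio of SREBF2 to SREBF1 CPM (left) and of INSIG1 to INSIG2 CPM (right) in each library, by dose; points are libraries and lines are group means (n = 4 controls, n = 3 at 10 µM, n = 1 at 20 µM). The 20 µM library has the highest SREBF2 to SREBF1 ratio (1.503) and the lowest INSIG1 to INSIG2 ratio (2.606).

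STARD4, which moves sterol between membranes and is a known SREBP-2 target, lies on chromosome 5 (hg38, 111496033 to 111512590, minus strand). It had 143, 183 and 166 CPM in the 10 µM libraries, against 32.7, 51.9, 42.2 and 38.1 CPM in the controls. Its lowest level of all, 21.4 CPM, was in the 20 µM library. The 10 µM libraries lay above every control and the 20 µM library below every control. STARD4 averaged 164 ± 20.4 CPM at 10 µM and 41.2 ± 8.13 CPM in controls, a log2 fold change of 1.86 (SE 0.177), or 3.63-fold, with an edgeR adjusted p of 0.000652. It fell by 2.94 on the log2 scale (SE 0.324) in the 20 µM library against 10 µM, with an edgeR adjusted p of 0.000585. STARD4 exons share 124 bases with STARD4-AS1 on the opposite strand, and the same limit applies.

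MYLIP encodes a ubiquitin ligase, also called IDOL, that marks lipoprotein receptors for breakdown, on chromosome 6 (hg38, 16129125 to 16148248, plus strand). It had 69.2, 73.2 and 63.6 CPM in the 10 µM libraries, against 52.1, 54.6, 50.7 and 51.9 CPM in the controls. In the 20 µM library MYLIP had 43.5 CPM. The 10 µM libraries lay above all controls and the 20 µM library below them all, but the difference of 10 µM to control did not pass (log2 fold change 0.27, SE 0.101, edgeR adjusted p = 0.0981), except with upper-quartile scaling (0.30, edgeR adjusted p = 0.0498). Against 10 µM it fell by 0.66 on the log2 scale in the 20 µM library (SE 0.16, edgeR adjusted p = 0.0153), a call that was lost with the replicate number as a block (-0.57, edgeR adjusted p = 0.0955).

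ABCA1, the exporter of cholesterol to lipid-poor lipoprotein, is on chromosome 9 (hg38, 104781002 to 104928237, minus strand) and was near the detection limit. It had 2, 33 and 13 counts in the 10 µM libraries, against 12, 10, 0 and 9 counts in the controls, and 90 counts in the 20 µM library. In CPM that was 0.0277, 0.464 and 0.179 at 10 µM, against 0.0849, 0.123, 0 and 0.0980 in the controls, and 0.724 at 20 µM; a count of 0 in control 3 allows up to 0.0379 CPM (3 counts, counting error only). ABCA1 was highest in the 20 µM library, and the 10 µM libraries spanned the controls. No test passed: the log2 difference was 1.43 (SE 1.28, edgeR adjusted p = 0.492) for 10 µM against control and 1.68 (SE 1.78, edgeR adjusted p = 0.526) for 20 µM against 10 µM. The first value was 0.25 without 10 µM replicate 3, and the second was 2.83 without that replicate. The ratio of ABCA1 to MYLIP CPM, both driven by LXR in other settings, differed by 0.86 on the log2 scale between treated libraries and controls (pseudocount 0.1 CPM, exact permutation test, two-sided, p = 0.286, adjusted 0.286), and by 0.0749 with a pseudocount of 1 CPM.

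**Figure D3:**
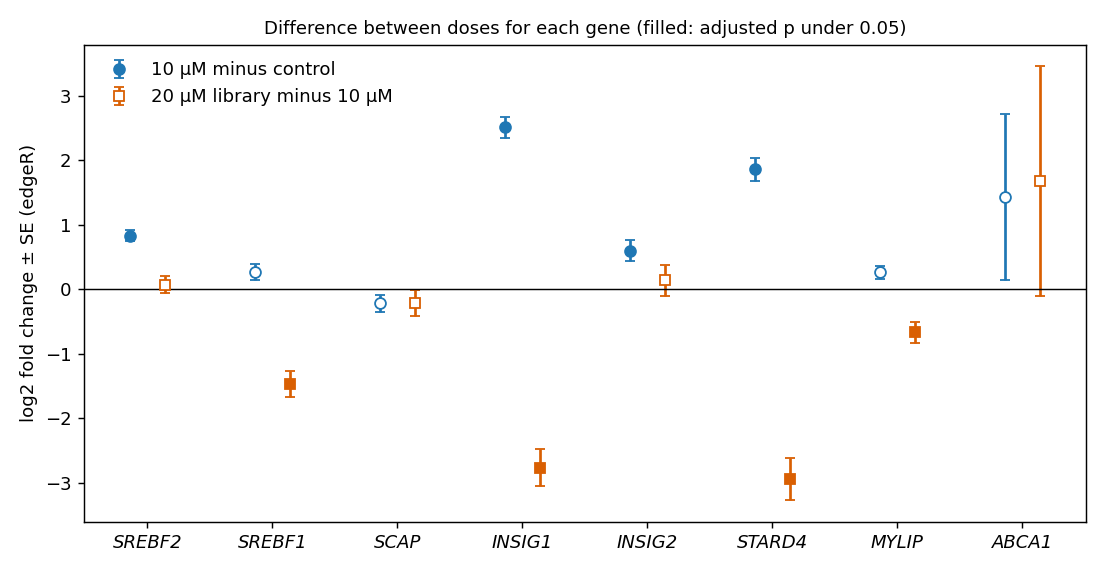
Log2 fold change with its standard error (vertical axis, edgeR) of each gene (horizontal axis), for 10 µM minus control (circles) and the 20 µM library minus 10 µM (squares), where filled symbols have an adjusted p under 0.05. INSIG1 and STARD4 lie highest at 10 µM, at 2.51 and 1.86, and lowest for 20 µM, at -2.76 and -2.94; both contrasts share the 10 µM libraries.

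With doses pooled, the contrast of all 4 treated libraries with the 4 controls called 3 of the 7 genes tested, beside 14.2% of 13101 genes. ABCA1 failed the filter on low counts. In CPM, without the scaling factors, groups did not overlap for 2 of the 7, beside 28.6%. SREBF2 (log2 fold change 0.86, edgeR adjusted p = 0.00747), INSIG1 (2.17, 0.0313) and INSIG2 (0.64, 0.0363) rose. STARD4 (1.51, edgeR adjusted p = 0.0842) missed the threshold in this pooled contrast and passed without the 20 µM library (1.85, edgeR adjusted p = 0.000646). The pooled change of SREBF1 was 0.03 on the log2 scale (SE 0.296, edgeR adjusted p = 0.961), and its sign changed between settings. Against the controls alone, 20 µM lay below every control for SREBF1, SCAP, STARD4 and MYLIP, 4 of 8, beside 30.6% of all genes, and above every control for SREBF2, INSIG2 and ABCA1, 3 of 8, beside 46.5%.

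The submitters' library names follow 2 patterns, letters (20 µM replicate 1, 10 µM replicate 4 and controls 1 and 4) and digits (10 µM replicates 2 and 3 and controls 2 and 3), and no label names these as batches. Within the digit names, mean CPM at 10 µM over that of controls was 1.96 for SREBF2, 5.47 for INSIG1, 1.47 for INSIG2, 3.47 for STARD4, 1.35 for SREBF1 and 1.35 for MYLIP. Within the letter names, with a single 10 µM library, it was 1.93 for SREBF2, 7.30 for INSIG1, 2.00 for INSIG2, 4.67 for STARD4, 1.28 for SREBF1 and 1.22 for MYLIP. All 6 kept their direction in both patterns.

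Levels per length (CPM per kb of exon, GENCODE release 29) gave the order of the 8 genes at each dose. In controls INSIG1 (29.1 ± 5.24), SCAP (27.0 ± 3.77) and SREBF1 (25.4 ± 2.71) overlapped, as did SREBF2 (17.8 ± 0.375) and MYLIP (17.2 ± 0.543). STARD4 (7.25 ± 1.43), INSIG2 (2.24 ± 0.163) and ABCA1 (0.00674 ± 0.00471) followed, each apart from its neighbour. At 10 µM INSIG1 led with 182 ± 5.03 CPM per kb. SREBF2 (34.5 ± 1.29), SREBF1 (33.4 ± 4.34), STARD4 (28.8 ± 3.59), SCAP (25.4 ± 4.13) and MYLIP (22.6 ± 1.58) followed at that dose, each overlapping its neighbour. INSIG2 (3.72 ± 0.47) and ABCA1 (0.0197 ± 0.0195) stood below them, each apart from its neighbour. In the 20 µM library SREBF2 led with 36.4 CPM per kb, ahead of INSIG1 with 27.0, SCAP with 21.9, MYLIP with 14.3, SREBF1 with 12.1, INSIG2 with 4.10, STARD4 with 3.77 and ABCA1 with 0.0638. STARD4 held the sixth place in controls, the fourth at 10 µM and the seventh in the 20 µM library.

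The sterol synthesis enzymes, the textbook targets of SREBP-2, rose at 10 µM in 19 of 22 and fell in 0, beside 19.1% of all genes called in either direction. Their median log2 fold change was 1.23 beside 0.05 over all genes. In the 20 µM library against 10 µM, 0 rose and 19 of 22 fell (at an unadjusted p under 0.05, 0 and 21), beside 26.3% of all genes called at the adjusted threshold. The median there was -1.76 beside 0.01. In that library 13 of the 22 stood below every control, 3 above and 6 within them, beside 30.6% of all genes below and 46.5% above. HMGCS1, which makes the precursor of mevalonate, averaged 1026 ± 225 CPM at 10 µM and 149 ± 14.2 CPM in controls (log2 fold change 2.65, edgeR adjusted p = 0.000138), and had 92.1 CPM at 20 µM. MSMO1, a methylsterol oxidase, averaged 102 ± 10.7 CPM at 10 µM and 20.6 ± 2.61 CPM in controls (2.18, edgeR adjusted p = 0.000138), and had 23.1 CPM at 20 µM. SQLE, squalene epoxidase, averaged 603 ± 100 CPM at 10 µM and 234 ± 41.2 CPM in controls, and had 263 CPM at 20 µM. HSD17B7, a 3-ketosteroid reductase, averaged 32.4 ± 1.57 CPM at 10 µM and 10.96 ± 1.64 CPM in controls, and had 14.4 CPM at 20 µM. Pooled over doses, 6 of 22 rose, beside 14.2% of all genes called in either direction. Without the 20 µM library 19 of 22 rose, beside 3021 of 13197 genes called.

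The fatty acid genes, targets of SREBP-1, rose in 6 of the 13 tested at 10 µM and fell in 0, beside 19.1% of all genes called. Their median log2 fold change was 0.67 beside 0.05 over all genes. In the 20 µM library against 10 µM, 10 of 13 fell and 0 rose, beside 26.3% of all genes called in either direction. The median there was -1.64 beside 0.01. In that library 9 of the 13 stood below every control, 3 above and 1 within them, beside 30.6% of all genes below and 46.5% above. LPIN1 and ACSS2, the 2 called in treated against control, were not among those 9. LPIN1, a phosphatidate phosphatase, averaged 164 ± 15.5 CPM at 10 µM and 51.5 ± 2.91 CPM in controls (log2 fold change 1.55, edgeR adjusted p = 0.000205), and had 91.2 CPM at 20 µM. ACSS2, which makes acetyl-CoA from acetate, averaged 174 ± 27.0 CPM at 10 µM and 46.3 ± 9.17 CPM in controls (1.79, edgeR adjusted p = 0.00049), and had 56.1 CPM at 20 µM.

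Of the genes of SREBP escort, proteolysis and turnover, 4 of 22 rose and 2 fell at 10 µM, beside 19.1% of all genes called in either direction. Their median log2 fold change was 0.19 beside 0.05. The 4 became 1 without control 2, control 3 or 10 µM replicate 3, and 2 without 10 µM replicate 4. In the 20 µM library against 10 µM 9 rose and 0 fell, beside 26.3% of all genes called in either direction. The median there was 0.42 beside 0.01. The 9 became 4 with the replicate number as a block or without 10 µM replicate 3, and 5 without control 4 or 10 µM replicate 2 or 4. SEC24D, a cargo adaptor of the transport vesicles, averaged 38.1 ± 3.71 CPM at 10 µM and 18.4 ± 0.834 CPM in controls (0.92, edgeR adjusted p = 0.00187), and had 152 CPM at 20 µM. SEC23A, of the same coat, averaged 42.5 ± 4.25 CPM at 10 µM and 28.7 ± 1.71 CPM in controls (0.44, edgeR adjusted p = 0.0311), and had 59.1 CPM at 20 µM. RNF145 (0.45, edgeR adjusted p = 0.0216) and TRIM21 (0.47, edgeR adjusted p = 0.0289), both ubiquitin ligases, rose at 10 µM as well.

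Among LXR receptors and LXR-driven genes other than ABCA1 and MYLIP, 0 of the 14 tested passed at 10 µM in either direction by edgeR, DESeq2 or limma-voom. At an unadjusted edgeR p under 0.05 there were 1 higher and 1 lower, beside 4901 of all 14857 genes in either direction. Their median log2 fold change was 0.09 beside 0.05, and with the replicate number as a block 3 rose and 1 fell. For 20 µM against 10 µM, 2 rose and 1 fell, beside 26.3% of all genes called there. The 2 became 0 with the replicate number as a block, and 1 without control 4 or 10 µM replicate 2 or 4. The gene that fell was LPCAT3, an LXR-driven phospholipid acyltransferase, with 9.04 CPM at 20 µM and 27.4 ± 2.57 CPM at 10 µM (-1.60, edgeR adjusted p = 0.00318). Those that rose were RXRB (1.74, edgeR adjusted p = 0.00812), a partner receptor of LXR, and NCOA1 (0.46, edgeR adjusted p = 0.0321), a coactivator. These 3 are named after their values were seen. NR1H3, which encodes LXRα, averaged 7.49 ± 0.681 CPM at 10 µM and 4.52 ± 0.938 CPM in controls (log2 fold change 0.61, edgeR adjusted p = 0.0773), and had 8.08 CPM at 20 µM. TTC39B, which lowers LXR protein in mouse liver, averaged 1.56 ± 0.592 CPM at 10 µM and 0.650 ± 0.414 CPM in controls (1.15, edgeR adjusted p = 0.186), and had 3.15 CPM at 20 µM. ABCG1, another sterol exporter, likewise named after its values were seen, had 0, 0 and 2 counts at 10 µM and 0 counts in every control, and 55 counts at 20 µM.

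Lipoprotein receptors and uptake adaptors showed 3 higher and 1 lower of 13 at 10 µM, beside 19.1% of all genes called in either direction. Their median log2 fold change was 0.04 beside 0.05. In the 20 µM library against 10 µM there were 1 higher and 4 lower, beside 26.3% of all genes called. The median there was -0.33 beside 0.01. The 3 at 10 µM became 1 with relative log expression factors and without any one of controls 1, 3 and 4 or of 10 µM replicates 2 and 3, and 5 with the replicate number as a block. The 1 lower became 0 without control 3 or 10 µM replicate 3 or 4. DAB2, an endocytic adaptor, averaged 66.1 ± 3.62 CPM at 10 µM and 25.9 ± 3.04 CPM in controls (1.23, edgeR adjusted p = 0.000775), and had 112 CPM at 20 µM. NUMB, another adaptor, averaged 66.0 ± 3.57 CPM at 10 µM and 42.7 ± 8.11 CPM in controls (0.50, edgeR adjusted p = 0.0465), and had 88.2 CPM at 20 µM. LRPAP1, a chaperone of these receptors, averaged 70.7 ± 7.58 CPM at 10 µM and 87.8 ± 9.00 CPM in controls (-0.44, edgeR adjusted p = 0.0232), and had 61.0 CPM at 20 µM.

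Of the genes of sterol transport and esterification, 4 of the 19 tested rose at 10 µM and 0 fell, a share near the 19.1% of all genes called. Their median log2 fold change was 0.12 beside 0.05. In the 20 µM library against 10 µM 4 rose and 1 fell, a share near the 26.3% of all genes called there. With the replicate number as a block those counts were 2 and 0, with limma-voom 7 rose, and the 1 that fell was not called without 10 µM replicate 3. The median log2 fold change in this contrast was 0.56 beside 0.01. Of the 19, 13 stood above every control in the 20 µM library, 3 below and 3 within them, beside 46.5% of all genes above and 30.6% below. NPC2, which hands sterol out of the lysosome, averaged 63.0 ± 9.72 CPM at 10 µM and 16.5 ± 5.80 CPM in controls (1.81, edgeR adjusted p = 0.00219), and had 83.6 CPM at 20 µM. NPC1, its membrane partner, averaged 50.6 ± 2.96 CPM at 10 µM and 27.9 ± 2.02 CPM in controls (0.73, edgeR adjusted p = 0.00414), and had 85.0 CPM at 20 µM. The sterol-binding protein genes OSBPL5 (0.78, edgeR adjusted p = 0.00967) and OSBPL2 (0.50, edgeR adjusted p = 0.012) rose at 10 µM too. Unlike STARD4, which had its lowest level there, NPC2 and NPC1 were at their highest in the 20 µM library, though the difference between these genes was not tested.

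**Figure D4:**
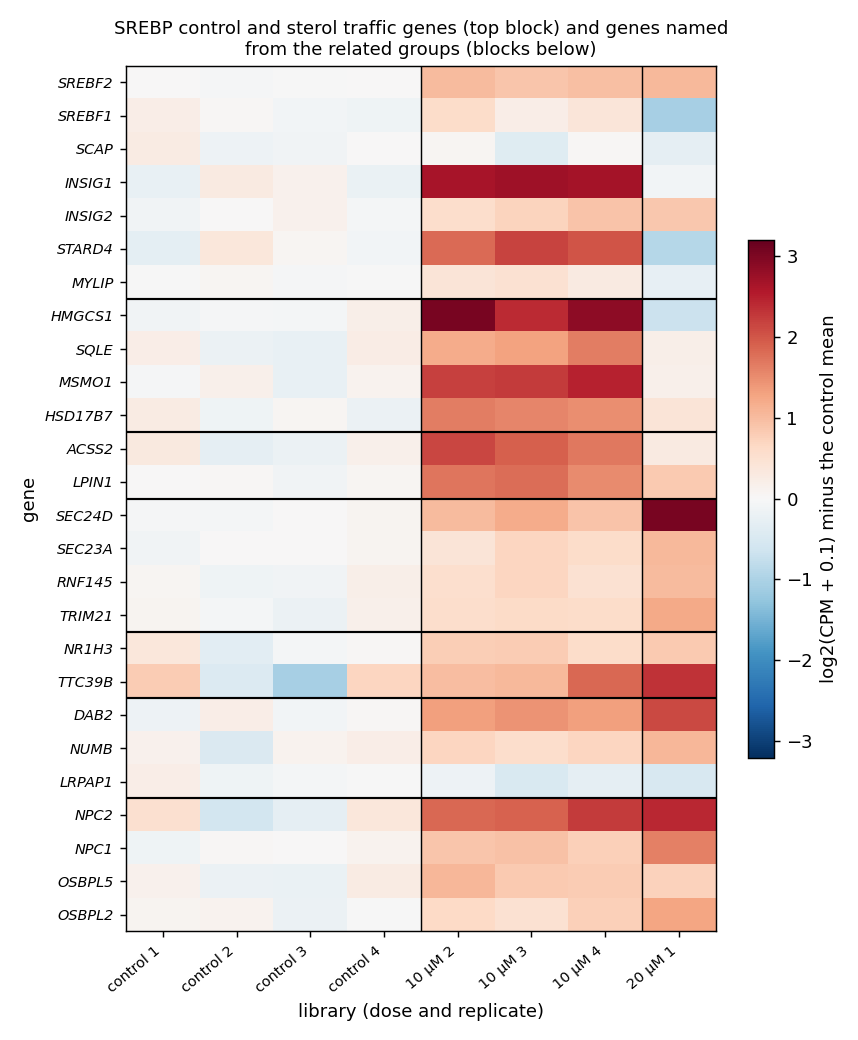
Log2 of CPM plus 0.1, minus the control mean of the same gene (colour scale, red above and blue below), in each library (columns, by dose and replicate). Rows are 7 of the 8 genes (ABCA1 is left out for its low counts) and, in blocks divided by lines, genes named in the text from sterol synthesis, fatty acid synthesis, SREBP escort and turnover, LXR, lipoprotein uptake and sterol transport; INSIG1, STARD4, HMGCS1 and MSMO1 are red in the 10 µM columns and pale or blue at 20 µM, while SEC24D, DAB2, NPC2 and NPC1 are red at both doses.

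The genes whose pattern over the 8 libraries was most like each of the 7 genes tested were found by Pearson's r of log2 CPM, as a description over libraries that share dose and depth. INSIG1 was near to HSPG2 (r = 0.985) and RABGAP1L (0.985). STARD4 was nearest to IFT74 (0.996), the sterol demethylase gene CYP51A1 (0.995) and the fatty acid desaturase gene SCD (0.990). SREBF1 was nearest to TXNDC2 (0.984), the sterol isomerase gene EBP (0.981) and EDARADD (0.978). SREBF2 was nearest to F11R (0.996), PDGFB (0.995) and ING4 (0.993), and INSIG2 to SLC38A6 (0.984), GOLGA7 (0.981) and IL21R (0.980). MYLIP was nearest to RFLNB (0.989), TMEM14A (0.980) and GPR160 (0.979), and SCAP to CTBP1 (0.969), KDM8 (0.964) and ARMC7 (0.963). Among the 8 genes themselves, INSIG1 and STARD4 had r = 0.963 and SREBF2 and INSIG2 had r = 0.931, while SREBF1 and SREBF2 had r = -0.151.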

How the data were processed

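RNA of K562 cells was sequenced in 8 libraries after removal of ribosomal RNA, per the labels' protocols. Whole-number counts for each gene in each library were deposited by the authors, per the file headers and the values. The submitters' processing notes name hg38 and the tools HISAT2, StringTie, bcl2fastq 2.0, limma and DESeq2, with no role, order or strand setting given in the sources used here. Low counts were unevenly spaced (401 entries held 1 count and 2958 held 4), so 1 count need not equal 1 read, and counting limits carry that doubt. Lines with no gene name (9) were dropped. CPM was each count divided by its library's total and multiplied by 1000000, without the TMM factor.

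Genes were filtered with filterByExpr, scaled by TMM (trimmed mean of M values, factors 0.9029 to 1.085) and tested two-sided with edgeR 4.0.16 (glmQLFit and glmQLFTest) in R 4.3.3, with Benjamini-Hochberg adjustment over all genes at a threshold of 0.05. The SE was the log2 fold change over the square root of F. One fit set treated against control and another, with 3 levels, gave 10 µM against control and 20 µM against 10 µM. Alternatives used DESeq2 1.42.0, limma 3.58.1 (voom), other scalings and filters, a naming-pattern term, a replicate block and leaving out each library. The contrasts of treated against control and of 10 µM against control were tested on simulated data. These had the same change at both doses and a common spread for all genes, unlike the real data. The contrast of 20 µM against 10 µM was not tested in this way.

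Replicate numbers 1 to 4 occur among both controls and treated libraries. Across genes, the log2 CPM of same-numbered libraries deviated together from their group means, with correlations of 0.453, 0.251, 0.39 and 0.262. Unlike-numbered libraries reached 0.31 (control 2 with 10 µM replicate 3), 0.242 (control 3 with 10 µM replicate 2) and 0.157 (control 4 with treated replicate 1). Each same-numbered pair was over 0.1, but so were these. All of these pairs, and control 1 with 10 µM replicate 4 (0.0504), lie within a naming pattern, letters or digits. Every pair across the patterns was negative, between -0.483 and -0.135. A naming-pattern term was run only for treated against control, so its effect on the contrasts by dose was not tested. The correlations do not settle whether the numbers pair the samples. The main tests therefore have no block, and blocked values stand beside results they change.

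The genes described and the gene lists were chosen with earlier results of these data known. From each list the text names members past the threshold in treated against control, at most the 4 with the smallest p in each direction, or the 2 with the smallest p where fewer than 2 passed, and for each gene tested the 3 genes most correlated with it. Some genes that this rule names are not reported here. Gene positions are from GENCODE release 29, which matched 19029 of 19447 symbols, and promoters from RefSeq on GRCh38.p14.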

Additional observations from a re-analysis of the deposited data

Results flagged for a closer look

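Each gene and each ratio was examined in the 4 treated libraries and, apart from these, in the 4 controls, 22 sets of values in all. In 3 of these sets, all from the treated group, the 20 µM library stood far from the 3 at 10 µM. INSIG1 was 98.57 CPM in it, and its gap to the nearest 10 µM library was 0.939 of the group's whole range. The log2 ratio of SREBF2 to SREBF1 was 1.503, with a gap of 0.838 of the range. The log2 ratio of INSIG1 to INSIG2, which holds the same INSIG1 value, was 2.606, with a gap of 0.889. All these gaps are above Dixon's critical value at the 95% level for 4 samples, which chance alone passes in about 1 in 20 groups. The treated group joins 2 doses, and dose and library cannot be told apart for the 20 µM value.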

How the results depend on the processing

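At 10 µM against control, the calls of SREBF2, INSIG1 and STARD4 held under all 15 alternatives run, and for 20 µM against 10 µM those of SREBF1, INSIG1 and STARD4 held under all 14. The number of the 8 genes called stayed between 3 and 5 in the first contrast and between 3 and 4 in the second. With the replicate block, SREBF1 at 10 µM gained its call (0.31) and MYLIP for 20 µM lost it (-0.57), and no other call of the 8 genes changed. For treated against control, 3 genes were called, and 1 to 4 when single libraries were left out: 1, SREBF2, without any control or without 10 µM replicate 3 or 4. In the letter-named libraries alone 0 of the 8 genes passed, where edgeR called 0 of 13956 genes and 2694 had an unadjusted p under 0.05, and SREBF2 and INSIG2 had adjusted p = 0.235 and INSIG1 0.298 there. INSIG1 lost its call with limma-voom (adjusted p = 0.0621), INSIG2 without a filter (0.0611) and in the digit-named libraries (0.132), and STARD4 gained one with DESeq2 (0.0159) and in the digit-named libraries (0.000408). SREBF1 changed sign with limma-voom (-0.0852), the replicate block (-0.0737), the naming pattern as a term (-0.00718) and the letter-named libraries (-0.35), and ranged between -0.18 and 0.27 with single libraries left out. MYLIP changed sign in the letter-named libraries (-0.10). The cause of these changes was not tested.

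The SREBF2 to SREBF1 difference was 0.945 with the replicate block, where the exact p of 0.125 is the smallest that 4 pairs allow, and ranged from 0.561 to 1.12 with single libraries left out. That of INSIG1 to INSIG2 ranged from 0.922 to 1.94, and that of ABCA1 to MYLIP from 0.295 to 1.41. Over all genes, 1855 were called for treated against control, 3395 with DESeq2, 2815 with the replicate block, 3348 with the naming pattern as a term and 3137 in the digit-named libraries. Leaving out control 1, 2, 3 or 4 left 567, 149, 64 or 315, 10 µM replicate 3 or 4 left 814 or 312, and the 20 µM library 3021. At 10 µM against control, 2842 became 4657 with the replicate block, 1880 or 1640 without control 2 or 3, and 1364 or 1463 without 10 µM replicate 3 or 4. Sterol enzymes called higher for treated against control, 6 of 22, numbered 13 with DESeq2, 1 with limma-voom, 11 with the naming pattern as a term and 18 in the digit-named libraries, and 0 to 19 with single libraries left out. At 10 µM they numbered 17 to 19 with single libraries left out. The median log2 fold change over all genes in treated against control was 0.0843 with TMM, 0.0681 with relative log expression factors and 0.138 with upper-quartile factors. Among the 8 genes depth limits ABCA1 most, with at most 90 counts in a library.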
